A study of Mus musculus with 7 samples.

Results

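Hyaluronan is a very long sugar polymer of the extracellular matrix, and the mRNAs of 10 genes that make it, cut it or bind it were measured in the hearts of mice after myocardial infarction (MI). The 10 genes were picked by name and function among the 56980 genes of the deposited table. They were the synthases Has1, Has2 and Has3, the hyaluronidases Hyal1 and Hyal2, the receptor Cd44, and the binding proteins Tnfaip6, Vcan, Hapln1 and Acan. All 10 had fragments in at least 1 mouse. Total RNA of myocardial tissues came from male wild-type (WT) mice of the inbred strain C57BL/6J, obtained at 8 weeks of age. In the MI group (n = 3) the left coronary artery had been tied, and in the sham-operated group (n = 4) the same operation was done without ligation. All hearts were taken 4 days after surgery, and each mouse gave 1 library. A permanent ligation leaves the downstream muscle without blood. The study describes the MI tissue as ischemic, the labels only as myocardial, and the share of infarcted muscle in each sample was not measured.

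Hyaluronan is built at the plasma membrane by the synthases, which join UDP-glucuronic acid and UDP-N-acetylglucosamine and push the growing chain out of the cell. Hyaluronidases cut the chain into fragments, and the cell surface receptor Cd44 binds both long chains and fragments. In tissue repair the polymer forms part of a loose provisional matrix, in which the proteoglycan versican (Vcan) binds to the chain, link protein (Hapln1) fixes that binding, and TSG-6 (Tnfaip6) transfers protein chains to hyaluronan. The heart valves and their embryonic precursors, the endocardial cushions, are also rich in this matrix.

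Values were FPKM, the number of sequenced fragments of a gene relative to its length and to the fragments of the library. The length behind the deposited values differed from the exon length in GENCODE M21 for 8 of the 10 genes (12512 against 6776 bases for Cd44), so an order of levels between genes is also given at the GENCODE lengths. Libraries held 19977713 to 23610869 fragments, and the ranges of the groups overlapped. The tissue label was checked against 8 cardiomyocyte markers, all of which were detected in every mouse, with Myh6 between 3796 and 4086 FPKM in the sham-operated mice. MI replicate 2 stood apart from the other MI mice. Its summed cardiomyocyte markers were 0.967 times the sham mean, against 0.639 and 0.678 times in MI replicates 1 and 3. Its summed macrophage and monocyte markers were 1.05 times the sham mean, against 5.89 and 5.04 times. The fitted changes of the 10 genes are therefore given with and without this mouse. It was singled out from these same data, which favours small p-values once it is left out. Those fits rest on MI replicates 1 and 3 only.

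Most hyaluronan genes were low in the sham-operated hearts and higher in MI replicates 1 and 3. For Has1, Cd44 and Tnfaip6, all 3 MI mice lay above all 4 sham-operated mice. The same order of the groups was met in 12% of the 30504 genes above 0, and in 16.1% of the genes that passed a filter of at least 1 FPKM in at least 3 mice. None of the 10 genes lay wholly below the sham-operated mice, as 4.34% of the genes above 0 did. MI replicate 2 was above every sham-operated mouse for the same 3 hyaluronan genes, against 19.3% of all genes above 0. In bulk tissue, more cells of a type and more mRNA per cell cannot be told apart.

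**Figure D1:**
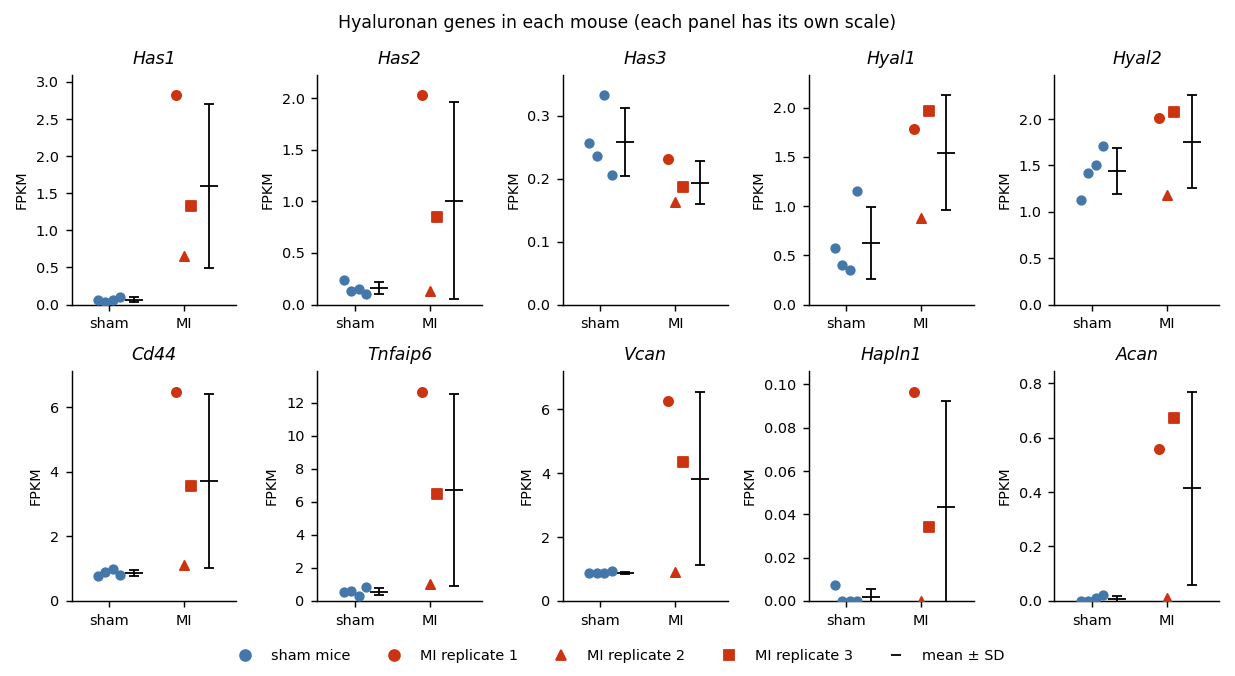
FPKM of the 10 hyaluronan genes (vertical axis, a linear scale of its own in each panel) in the 4 sham-operated mice (blue) and the 3 MI mice (red, 1 marker shape per replicate), with the mean and SD of each group beside the points. MI replicate 2 (triangle) lies near the sham-operated mice for most genes, and above all of them for Has1, Cd44 and Tnfaip6.

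Only 4 of the 10 genes passed the filter (Hyal1, Hyal2, Cd44 and Tnfaip6). Cd44 and Tnfaip6 passed only through their levels in the MI mice. Hyal1 passed through MI replicates 1 and 3 and sham replicate 4. Of these 4, 0 had an adjusted p under 0.05 in limma's moderated test on log2(FPKM + 1), and 0 with limma's voom on recovered fragments. Over all 11431 genes that passed, 0.0262% did so. At an unadjusted p under 0.05, Hyal1, Cd44 and Tnfaip6 were higher (3 of 4), against 29.5% of the genes tested. All 3 needed MI mice to pass the filter, so this count is not independent of the filter. In a fit of all 30504 genes above 0, 0 of 10 had an adjusted p under 0.05, against 0.0688% of all genes. There 6 of 10 were higher at an unadjusted p under 0.05, against 20.6% of all genes. The median log2 fold change of the 10 was 0.66 in that fit, and 0.06 over all genes above 0. Without MI replicate 2, 4 of the 4 filtered genes were higher at an adjusted p under 0.05, as were 57% of all genes tested. Without a filter and without that mouse, 8 of 10 were, against 35.8%.

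Has1, Cd44, Tnfaip6 and Vcan are shown with the sequence before their start sites: the first 3 because all MI mice lay above all sham-operated mice, and Vcan as a binding partner of hyaluronan whose MI replicate 2 stayed inside the sham range. The stretches come from RefSeq's promoter table on GRCm38.p6, which held 8 of the 10 genes, and are written 5′ to 3′ on the strand of the gene. Bases inside the GENCODE M21 gene were left off. Has1 covers chr17:17855206-17855438 on the minus strand, Cd44 chr2:102901666-102901915 on the minus strand, Tnfaip6 chr2:52037863-52038008 on the plus strand and Vcan chr13:89742513-89742762 on the minus strand. Capitals mark matches to 4 motifs searched on both strands.
Has1: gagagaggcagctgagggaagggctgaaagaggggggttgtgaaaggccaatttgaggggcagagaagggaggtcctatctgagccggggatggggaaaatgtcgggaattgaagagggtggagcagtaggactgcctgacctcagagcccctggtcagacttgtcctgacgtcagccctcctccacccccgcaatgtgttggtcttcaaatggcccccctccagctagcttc
Cd44: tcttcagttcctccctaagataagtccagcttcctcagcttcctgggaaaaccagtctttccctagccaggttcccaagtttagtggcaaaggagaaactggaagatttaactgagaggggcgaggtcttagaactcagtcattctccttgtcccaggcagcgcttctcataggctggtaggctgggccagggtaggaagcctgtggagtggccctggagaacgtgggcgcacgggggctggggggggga
Tnfaip6: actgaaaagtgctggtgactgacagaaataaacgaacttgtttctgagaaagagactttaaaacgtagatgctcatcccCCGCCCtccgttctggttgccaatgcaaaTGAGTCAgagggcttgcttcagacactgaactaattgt
Vcan: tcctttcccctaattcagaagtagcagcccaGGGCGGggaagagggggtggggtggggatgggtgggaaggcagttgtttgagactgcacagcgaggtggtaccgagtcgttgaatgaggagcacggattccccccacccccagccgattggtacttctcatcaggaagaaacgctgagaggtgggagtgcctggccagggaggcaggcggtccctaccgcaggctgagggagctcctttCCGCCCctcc
The motifs were the AP-1 motif TGANTCA, the GC box GGGCGG, the TATA box TATAAA and the E-box CACGTG, and they were searched in the 250 bases before each RefSeq start. The promoter of Tnfaip6 held 1 AP-1 match, whose first base lay 142 bases before the start, and 1 GC box. The promoter of Vcan held 2 GC boxes. The windows of Has1 and Cd44 held none of the 4. Of 32851 promoters of the same length, 6.75% held the AP-1 motif, 32.7% the GC box, 12.4% the TATA box and 6.02% the E-box. Outside these 4 genes, GC boxes were found at Hyal1 (2, which overlap each other), Hyal2 (1) and Acan (3, of which 2 overlap), and Hapln1 held no match. The windows of Hyal2 and Hapln1 lay wholly inside the GENCODE M21 gene. The matches are letters in a window and no measure of binding.

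The order of the synthases differed between the groups. Has1 (ENSMUSG00000003665, chromosome 17, 17843323 to 17855205, minus strand) had an FPKM of 0.0633, 0.0327, 0.0605 and 0.107 in sham replicates 1 to 4, from 4 to 12 fragments per mouse. In MI replicates 1 to 3 it was 2.82, 0.651 and 1.33, from 346, 83 and 177 fragments. The groups did not overlap, and the 95% counting interval of MI replicate 2 (0.518 to 0.806, exact Poisson, counting error only) lay above the highest sham value. The means were 0.0658 ± 0.0305 (SD, n = 4) and 1.60 ± 1.11 (SD, n = 3), a ratio of 24.3. MI replicate 2 was 9.89 times the sham mean, the largest such ratio of the 10 genes in that mouse. In limma's fit without a filter, the log2 fold change was 1.20 (SE 0.26) with an adjusted p of 0.188. The exact two-sided permutation test over the 35 splits of the mice gave p = 0.0571, the smallest that 3 against 4 mice allow. Once MI replicate 2 was left out, it was 1.49 (SE 0.20) with an adjusted p of 0.00263 by limma.

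Has2, the synthase needed for the endocardial cushions of the embryo (ENSMUSG00000022367, chromosome 15, 56665627 to 56694539, minus strand), differed between the MI mice. Its FPKM was 0.242, 0.131, 0.151 and 0.106 in sham replicates 1 to 4 (9 to 23 fragments), and 2.03, 0.136 and 0.850 in MI replicates 1 to 3 (187, 13 and 85 fragments). MI replicate 2 lay within the sham range, at 0.861 times the sham mean, and the other MI mice were at 12.9 and 5.40 times. The log2 fold change was 0.68 (SE 0.30, limma's adjusted p 0.207 without a filter), and 1.03 (SE 0.20, adjusted p 0.0101) without MI replicate 2. Its antisense RNA Has2os overlaps 182 exon bases on the opposite strand, and whether counting used the strand is not given in the sources used here. Has2os was at 0.0658 ± 0.0288 FPKM (SD, n = 4) and 0.203 ± 0.132 (SD, n = 3), from 2 to 5 and 6 to 22 fragments, and its groups did not overlap.

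Has3 (ENSMUSG00000031910, chromosome 8, 106870242 to 106884566, plus strand) was the synthase whose mean was not higher in the MI mice. Its FPKM was 0.256, 0.237, 0.333 and 0.206 in the sham-operated mice (40 to 76 fragments), and 0.231, 0.163 and 0.187 in the MI mice (36 to 49 fragments). The groups overlapped through MI replicate 1, and the difference of -0.07 on the log2(FPKM + 1) scale (SE 0.05) did not pass the test (limma's adjusted p 0.360 without a filter). Of its exon bases, 352 are shared with Chtf8 on the opposite strand.

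**Figure D2:**
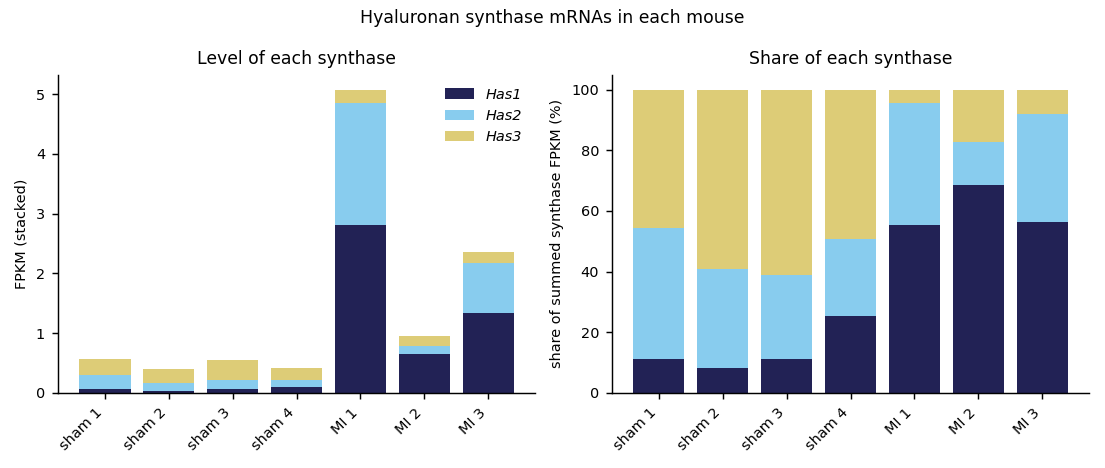
Summed FPKM of the 3 hyaluronan synthases in each mouse (left, stacked bars) and the share of each in that sum (right, percent), for sham replicates 1 to 4 and MI replicates 1 to 3. Has3 is the largest share in all 4 sham-operated mice, and Has1 in all 3 MI mice.

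Together, the synthases summed to 0.481 ± 0.0835 FPKM (SD, n = 4) in the sham-operated mice and 2.80 ± 2.10 (SD, n = 3) in the MI mice. By FPKM, Has3 was the most abundant synthase mRNA in 4 of 4 sham-operated hearts, where it held 45.7% to 61.2% of the sum. By the deposited values, its counting interval (exact Poisson) lay above those of Has1 and Has2 only in sham replicate 3. In sham replicate 1 the interval was 0.194 to 0.333 FPKM for Has3 and 0.153 to 0.363 for Has2. The intervals of Has3 and Has2 also overlapped in sham replicates 2 and 4. Has3 shares exon bases with Chtf8, and whether counting used the strand is not given. Has1 was the most abundant in 3 of 3 MI hearts, with 55.5%, 68.5% and 56.2% in replicates 1 to 3, against 8.18% to 25.5% in the sham-operated hearts. At the GENCODE lengths, Has3 was again the most abundant in all 4 sham-operated mice and Has1 in all 3 MI mice. Its share was thus highest in MI replicate 2, the MI mouse with the lowest synthase sum. The share of Has2 overlapped, at 25.4% to 43.1% in the sham-operated and 14.3% to 39.9% in the MI mice. The difference between Has1 and Has2 was -0.12 ± 0.09 (SD, n = 4) on the log2(FPKM + 1) scale in the sham-operated mice and 0.40 ± 0.12 (SD, n = 3) in the MI mice. The groups did not overlap (exact permutation p = 0.0571, 0.114 after Benjamini-Hochberg adjustment over 5 pairs of genes, higher in 3 of 3 MI mice).

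Both hyaluronidases had higher means in the MI mice, with overlap between the groups. Hyal1, a lysosomal enzyme that cuts hyaluronan into small fragments (ENSMUSG00000010051, chromosome 9, 107576927 to 107581710, plus strand), was at 0.578, 0.406, 0.354 and 1.15 FPKM in sham replicates 1 to 4 and at 1.79, 0.878 and 1.96 in MI replicates 1 to 3. Sham replicate 4 was above MI replicate 2, so the groups overlapped. The log2 fold change was 0.64 (SE 0.22), with an unadjusted p of 0.0197 and an adjusted p of 0.108 by limma. It was 0.85 (SE 0.19, limma's adjusted p 0.00548) without MI replicate 2. Hyal1 shares 1920 exon bases with Naa80 and 159 with Hyal3, both on the same strand, so its count could hold fragments of its neighbours. The length behind its FPKM was 7944 bases, against 3777 in GENCODE M21, so its level relative to other genes is uncertain.

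Hyal2, a membrane-anchored enzyme that makes large fragments from the longest chains (ENSMUSG00000010047, chromosome 9, 107567945 to 107572779, plus strand), was the highest of the 10 genes in every sham-operated mouse, at 1.12, 1.42, 1.51 and 1.71 FPKM, and was so at the GENCODE lengths too. In MI replicates 1 to 3 it was 2.02, 1.19 and 2.07, and MI replicate 2 lay within the sham range. The log2 fold change of 0.17 (SE 0.15, limma's adjusted p 0.400) fell short of the threshold, and its sign turned to -0.011 under scaling by the median log-ratio and to -0.076 under quantile normalization. It was 0.33 (SE 0.10, limma's adjusted p 0.0251) without MI replicate 2, and the adjusted p was 0.0582 when the filter was left out as well. The length behind its values, 7783 bases, was also above the 3293 of GENCODE M21.

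The synthase sum was 0.247 ± 0.0816 times the hyaluronidase sum in the sham-operated mice (SD, n = 4; range 0.146 to 0.330). It was 0.794 ± 0.473 times in the MI mice (SD, n = 3; range 0.460 to 1.33), so the groups did not overlap. At the GENCODE lengths the ratio was 0.0855 to 0.184 in the sham-operated mice and 0.692, 0.257 and 0.310 in MI replicates 1 to 3, also without overlap. For the difference of Has2 minus Hyal2, the groups overlapped (MI minus sham 0.51 on the log2 scale, exact permutation p = 0.114, also 0.114 adjusted over the 5 pairs). Hyal1 minus Hyal2 was -0.61 ± 0.27 (SD, n = 4) in the sham-operated and -0.13 ± 0.08 (SD, n = 3) in the MI mice, without overlap (exact permutation p = 0.0571, adjusted 0.114).

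Cd44, the main cell surface receptor for hyaluronan and abundant on leukocytes and activated fibroblasts (ENSMUSG00000005087, chromosome 2, 102811141 to 102901665, minus strand), was even among the sham-operated hearts, at 0.770, 0.888, 0.991 and 0.812 FPKM. MI replicates 1 to 3 had 6.47, 1.11 and 3.55 FPKM, from 1763, 314 and 1050 fragments. MI replicate 2 was just above the highest sham-operated mouse, and its counting interval (0.989 to 1.24, exact Poisson) reached below that mouse's 0.991. The means were 0.865 ± 0.0970 (SD, n = 4) and 3.71 ± 2.68 (SD, n = 3). Their ratio was 4.29, and the log2 fold change was 1.16 (SE 0.37, unadjusted p 0.0167, adjusted p 0.108 by limma). Without MI replicate 2 the log2 fold change was 1.65 (SE 0.18, adjusted p 0.000212).

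Tnfaip6 encodes TSG-6, a secreted protein of inflamed tissue that moves heavy chains of inter-alpha-trypsin inhibitor onto hyaluronan (ENSMUSG00000053475, chromosome 2, 52038009 to 52056686, plus strand). It was at 0.521, 0.620, 0.274 and 0.820 FPKM in sham replicates 1 to 4 (11 to 28 fragments), and at 12.7, 1.01 and 6.49 in MI replicates 1 to 3 (472, 39 and 262 fragments). All MI mice were above all sham-operated mice. In MI replicates 1 and 3 it had the highest FPKM of the 10 genes, but at the GENCODE lengths Cd44 (6.56) was above it (6.49) in MI replicate 3. The counting interval of MI replicate 2 (0.716 to 1.38, exact Poisson) included the highest sham value. The log2 fold change was 1.93 (SE 0.58), with an unadjusted p of 0.0115 and an adjusted p of 0.108 by limma. Without MI replicate 2, it was 2.71 (SE 0.24, adjusted p 8.7e-05). Tnfaip6 minus Cd44 was -0.27 ± 0.27 (SD, n = 4) on the log2 scale in the sham-operated and 0.51 ± 0.51 (SD, n = 3) in the MI mice, with overlap (exact permutation p = 0.114, also 0.114 adjusted).

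Versican (Vcan, ENSMUSG00000021614, chromosome 13, 89655312 to 89742509, minus strand) is a large chondroitin sulfate proteoglycan whose head domain holds hyaluronan. It had the narrowest relative spread among the sham-operated mice, at 0.860, 0.887, 0.875 and 0.933 FPKM from 373 to 411 fragments. MI replicates 1 and 3 had 6.25 and 4.36 FPKM, 7.03 and 4.90 times the sham mean. MI replicate 2, with 405 fragments, was at 0.894 FPKM, 1.01 times the sham mean. The log2 fold change without a filter was 1.15 (SE 0.43, limma's adjusted p 0.188). When that mouse was left out, it was 1.72 (SE 0.12, adjusted p 0.000395).

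Hapln1 and Acan, the link protein and the proteoglycan aggrecan best known from cartilage, were near the detection limit in the sham-operated hearts. Hapln1 (ENSMUSG00000021613, chromosome 13, 89539796 to 89611652, plus strand) had 1, 0, 0 and 0 fragments in sham replicates 1 to 4 and 13, 0 and 5 in MI replicates 1 to 3. A count of 0 allowed up to 0.0208 to 0.0244 FPKM in those 3 sham-operated mice and 0.0215 in MI replicate 2. The summed fragments per library depth were 23.2 times as many in the MI mice (95% counting interval 3.66 to 965), which covers counting error only. Acan (ENSMUSG00000030607, chromosome 7, 79053483 to 79115099, plus strand) had 0, 0, 2 and 4 fragments in sham replicates 1 to 4 and 114, 2 and 149 in MI replicates 1 to 3. That was 0.558, 0.0094 and 0.673 FPKM in the MI mice, and a summed rate ratio of 56.9 (95% counting interval 25.8 to 156). Acan was the only gene besides Hyal1 and Hyal2 that was higher in MI replicate 3 than in replicate 1. Neither group difference passed limma's test without a filter (log2 fold change 0.06, adjusted p 0.258 for Hapln1, and 0.45, adjusted p 0.188 for Acan). Without MI replicate 2, the adjusted p was 0.0341 for Hapln1 and 0.00015 for Acan. The difference of Hapln1 minus Vcan was -0.91 ± 0.03 (SD, n = 4) on the log2 scale in the sham-operated and -2.01 ± 0.96 (SD, n = 3) in the MI mice, with overlap (exact permutation p = 0.114, also 0.114 adjusted).

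**Figure D3:**
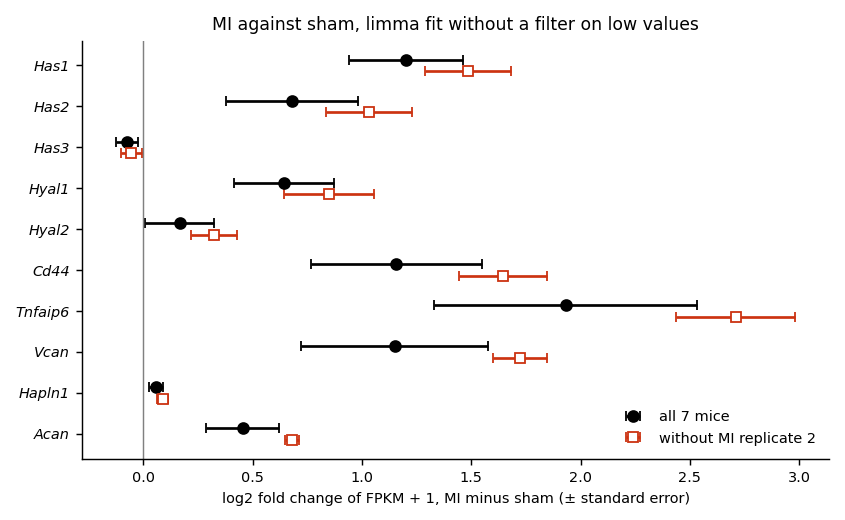
Log2 fold change of FPKM + 1, MI minus sham, with its standard error (horizontal axis), for the 10 hyaluronan genes with all 7 mice (black circles) and without MI replicate 2 (open red squares), both without a filter on low values. Leaving out MI replicate 2 moves every gene but Has3 further from 0, and Has3 lies just below 0 in both.

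The levels of most of the genes followed one another over the mice. Pearson's r of log2(FPKM + 1) between Cd44, Tnfaip6 and Vcan was 0.984 to 0.989 over the 7 mice, and between Has1 and Has2 it was 0.934. Has3 had a negative r with each of the other 9 genes, from -0.60 with Hyal1 to -0.10 with Hapln1. These values share the 7 libraries and the split into groups and describe them only. For Cd44, the genes tested with the most similar pattern were Zfc3h1, Tep1 and Cars, each with r of 0.997 or 0.998. For Tnfaip6 they were Yipf5 (0.999), Akip1 and Sbds (both 0.998). Such likeness was common, since 2860 genes had an r over 0.95 with Cd44 and 2822 with Tnfaip6. Fewer genes had an r over 0.95 with Has1 (657), Hapln1 (368) and Has3 (1). There were 30 with Hyal1, led by Taf1b, 1700047I17Rik2 and Retreg2 (0.977, 0.974 and 0.971), and 25 with Hyal2, led by Smad7, Cux1 and Xpa (0.994, 0.989 and 0.982).

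Of 46 other genes of hyaluronan metabolism in 7 lists, 43 were above 0 and 23 passed the filter. None of the 23 had an adjusted p under 0.05 by limma, 13 were higher at an unadjusted p under 0.05 and 0 were lower, where 29.5% of the genes that passed the filter were higher. When MI replicate 2 was left out, 18 of the 23 were higher at an adjusted p under 0.05, as were 57% of all genes tested. With all 7 mice, their median log2 fold change was 0.83, against 0.21 over all genes tested. All MI mice were above all sham-operated mice for 11 of the 43, against 12% of the genes above 0. Each single list rests on few genes, against the same background of 29.5%.

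Among 7 genes that supply the UDP-sugars, 5 passed the filter and 3 of them were higher at an unadjusted p under 0.05. Gfpt2, which starts the hexosamine pathway, led that list with a log2 fold change of 1.44 (SE 0.41, limma's adjusted p 0.108), from 2.21 to 3.17 FPKM in the sham-operated mice to 15.4, 3.61 and 12.2 in MI replicates 1 to 3. Ugp2, which makes UDP-glucose, had the smallest at -0.03 (SE 0.11, adjusted p 0.856). Of 8 other enzymes that break hyaluronan down, 4 passed and 3 were higher at an unadjusted p under 0.05. The hyaluronan-degrading protein Cemip had 0, 0, 2 and 0 fragments in the sham-operated mice and 376, 9 and 196 in MI replicates 1 to 3. Its summed rate ratio was 374 (95% counting interval 103 to 3095), and its groups did not overlap. Cemip2, a membrane hyaluronidase, was at 1.26 to 1.54 FPKM in the sham-operated mice and at 3.03, 1.12 and 3.26 in the MI mice, with a log2 fold change of 0.48 (SE 0.24, adjusted p 0.156). Hyal4 and Spam1 had 0 fragments in all 7 mice.

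Of 7 other hyaluronan receptors, 5 passed the filter and 4 were higher at an unadjusted p under 0.05. Tlr2, an innate immune receptor reported to sense hyaluronan fragments, had the largest log2 fold change of all the lists' genes that passed, at 1.63 (SE 0.49, adjusted p 0.108). Its FPKM was 0.979 to 1.40 in the sham-operated mice and 9.34, 1.57 and 10.8 in the MI mice. Lyve1, the hyaluronan receptor of lymphatic endothelium and of resident macrophages, was at 6.69 to 13.6 FPKM in the sham-operated and 10.9, 9.90 and 9.39 in the MI mice, inside the sham range (log2 fold change 0.18, SE 0.22, adjusted p 0.513). Hmmr, a hyaluronan-binding protein of dividing cells, was at 0.158 to 0.244 FPKM in the sham-operated and at 1.23, 0.148 and 0.954 in the MI mice. None of the 5 other lecticans and link proteins passed the filter.

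Only 1 of 8 inter-alpha-trypsin inhibitor chains and matrix cross-linkers passed the filter. This was Itih5, with a log2 fold change of 1.31 (SE 0.40, adjusted p 0.108). Ptx3, a pentraxin that binds TSG-6 in hyaluronan matrix, was at 0.130 to 0.209 FPKM in the sham-operated and at 4.94, 0.115 and 4.08 in the MI mice, with MI replicate 2 below every sham-operated mouse. Of 6 proteases that cleave versican or aggrecan, 4 passed and 1 was higher at an unadjusted p under 0.05, a share no larger than that background. Their log2 fold changes ran from 0.05 (SE 0.17, adjusted p 0.839) for Adamts9 to 0.97 (SE 0.44, adjusted p 0.139) for Adamts15. Of the 5 Cd44 partners and ligand, 4 passed and again 1 was higher. This was moesin (Msn), which links membrane proteins to actin, at 0.88 (SE 0.34, adjusted p 0.113). Its relative radixin (Rdx) had the smallest log2 fold change of all the lists' genes that passed, -0.28 (SE 0.41, adjusted p 0.603).

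**Figure D4:**
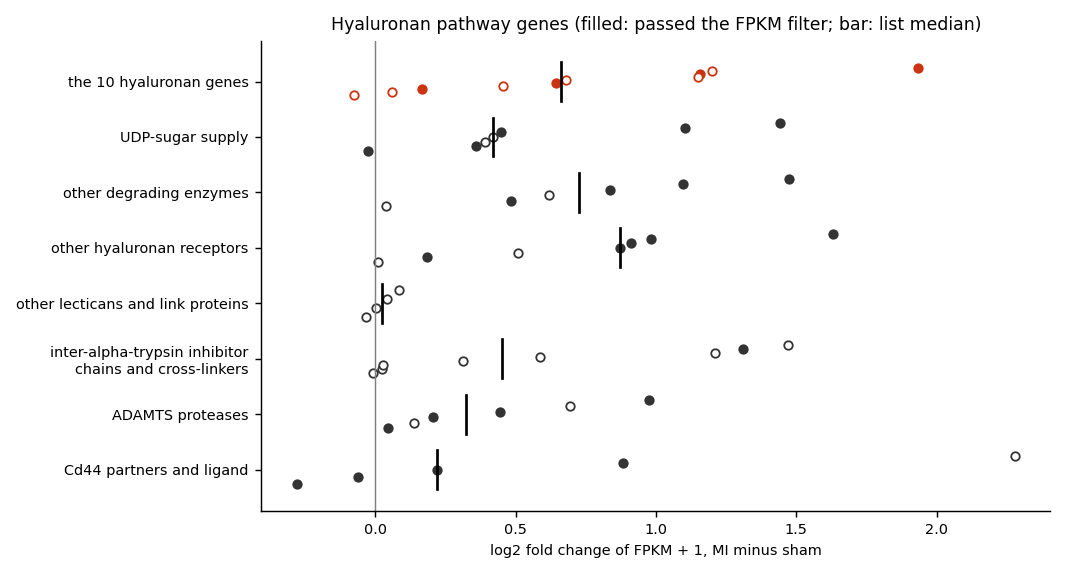
Log2 fold change of FPKM + 1, MI minus sham (horizontal axis), of the 10 hyaluronan genes (red) and of the 7 other lists (black), 1 point per gene above 0, filled where the gene passed the filter. The black bars are list medians, from 0.02 for the other lecticans and link proteins to 0.87 for the other receptors, with the 10 hyaluronan genes at 0.66.

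Markers of several cell types moved with the hyaluronan genes. In MI replicates 1, 2 and 3, the summed fibroblast markers (8 of 8 detected) were 18.9, 1.76 and 14.6 times the sham mean, and 7 of the 8 were above all sham-operated mice in all MI mice. Of all genes above 0, 12% were, and 16.1% of those that passed the filter. The neutrophil markers were at 22.6, 0.793 and 12.0 times and the macrophage and monocyte markers at 5.89, 1.05 and 5.04 times, with 1 of 5 and 3 of 8 genes above in this way. Lymphatic endothelial markers were at 3.43, 1.37 and 2.63 times, with 2 of 4 genes above and Prox1 below the sham-operated mice in all MI mice. Lymphocyte markers were at 49.0, 1.13 and 8.16 times, with 2 of 5 genes (Cd3e and Cd3g) above the sham-operated mice in all MI mice, while Cd79a and Ms4a1 were below all of them in MI replicate 2. Endothelial markers were at 1.16, 0.881 and 1.25 times, with Vwf above and Kdr below the sham-operated mice in all MI mice. Smooth muscle and pericyte markers were at 1.45, 0.939 and 1.63 times, with 1 of 5 genes (Tagln) above in all MI mice. Has1, Has2, Has3, Cd44, Tnfaip6, Vcan and Hapln1 were ordered over the MI mice (replicate 1, then 3, then 2) as were the fibroblast, macrophage, neutrophil, lymphocyte and lymphatic endothelial lists, although Has3 was not higher than in the sham-operated mice. The part of these cell types in the levels of the hyaluronan genes was not tested.

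In MI replicate 2, where Has1 was 9.89 times the sham mean, the sums of 4 marker lists were above the sham range: fibroblast, lymphatic endothelial, mesothelial (epicardial) and chondrocyte. The 5 mesothelial markers, which label the outer lining of the heart, summed to 3.80 to 8.94 FPKM in the sham-operated mice and to 24.5, 18.1 and 37.2 in MI replicates 1 to 3, and 4 of the 5 (Msln, Upk3b, Krt19 and Lrrn4) were above all sham-operated mice in all MI mice, against the same 12% of genes above 0. In MI replicate 2 this sum was 3.11 times the sham mean, while the remaining marker, Wt1, was at 0.451 FPKM, below every sham-operated mouse. The order of the MI mice differed, with Has1 highest in replicate 1 and the mesothelial sum highest in replicate 3. Acan was highest in MI replicate 3 and lowest in replicate 2, as were the mesothelial, endothelial, smooth muscle and pericyte, and chondrocyte lists. The chondrocyte list was at 9.02, 1.27 and 11.4 times the sham mean in MI replicates 1 to 3. Of its 6 genes, Sox9 (6.64, 0.620 and 9.11 FPKM) made up most of the sum, and it and Col11a2 were above all sham-operated mice in all MI mice. Col2a1 was at 0.288, 0.00414 and 0.302 FPKM and Matn3 at 0.457, 0 and 0.492 in MI replicates 1 to 3, each above 0 in only 1 sham-operated mouse. Matn1 was at 0 in all mice but MI replicate 2, and Col9a1 was at 0 in all sham-operated mice and MI replicate 2. The part of these cells in Has1 and Acan was not tested.

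**Figure D5:**
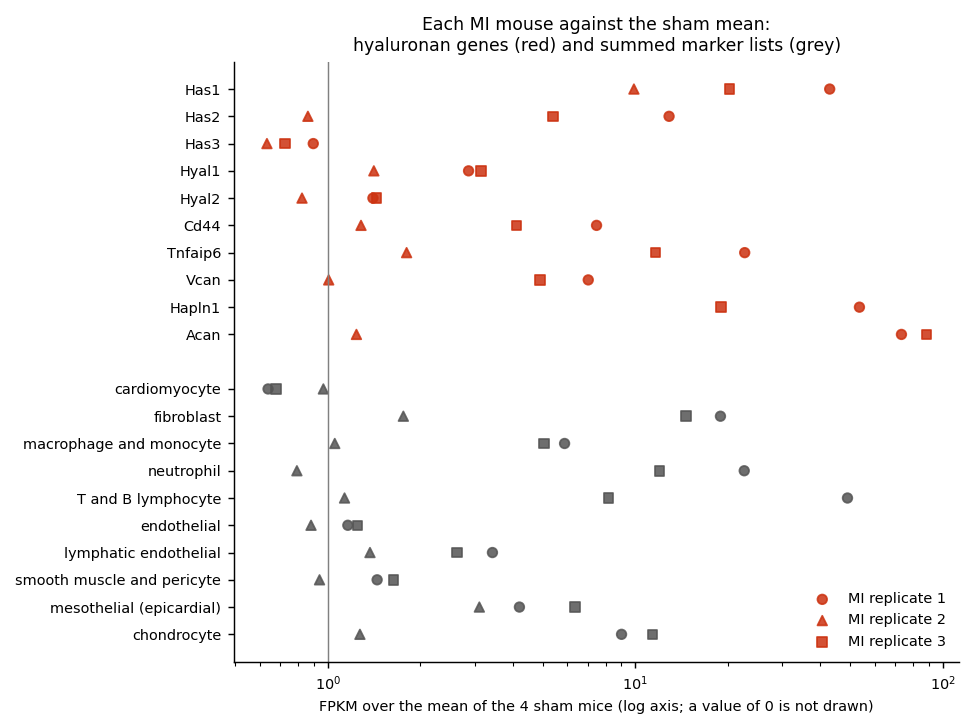
FPKM of each MI mouse divided by the mean of the 4 sham-operated mice (horizontal log axis), for the 10 hyaluronan genes (red) and for the summed FPKM of 10 marker lists (grey), with 1 marker shape per MI replicate. A value of 0 is not drawn (Hapln1 in MI replicate 2). MI replicate 2 is at 9.89 for Has1 and 3.11 for the mesothelial list, and below 2 for the other genes and lists.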

How the data were processed

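The authors deposited 1 table of FPKM values for 56980 Ensembl genes in 7 libraries, 1 per mouse (all value columns were used, with 0 left out). The submitters' processing notes list CASAVA 1.8, HISAT2, SAMtools 1.3.1, edgeR and mm10, without their roles. Strandedness and annotation are not given in the sources used here. Groups came from the sample labels. Symbols and positions came from GENCODE M21 on GRCm38 (91.4% of identifiers matched). The deposited FPKM values moved in steps of 1 fragment. These steps, at GENCODE M21 exon lengths, gave depths of 19977713 to 23610869. Whole fragments within 0.05 were then returned for 30501 of 30504 genes above 0, at the GENCODE length for 11725. For the other 18776, 8 of the 10 hyaluronan genes among them, the shortest length that gave whole numbers was searched for and used. Their fragments are thus the smallest counts that fit the values. Intervals and limits on a count of 0 (3 fragments) cover counting error only.

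Values were tested as log2(FPKM + 1), which understates changes of low genes, with limma 3.58.1 (eBayes with trend, R 4.3.3) on genes of at least 1 FPKM in at least 3 mice, with Benjamini-Hochberg adjustment at 0.05, and again without the filter. Pairs of genes were compared by exact two-sided permutation over 35 splits. The scripts were tested on simulated data. Tables and plots were made with matplotlib 3.10.9, SciPy 1.17.1, NumPy 2.4.6 and pandas 2.3.3 under Python 3.11.15. The counts and the genes that passed the filter were recomputed under 17 other settings (pseudocount, filters, scalings, sample weights, robust moderation, voom, a replicate block and each mouse left out). Another 12, added after the data were seen, combined no filter with a second change for the genes under it, and 1 more rescaled the 10 genes' FPKM to GENCODE M21 lengths. The 10 genes, the lists and the tests were chosen with earlier results of these data known. Named were all 10 genes, the largest and smallest log2 fold change of each other list among genes that passed the filter, Cemip, Cemip2, Lyve1, Hmmr, Ptx3 and Has2os, and the 3 genes most alike in pattern. Some genes of these lists are not reported here. Hyal4, Spam1 and the single marker genes were named after their values were seen.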

Additional observations from a re-analysis of the deposited data

Results flagged for a closer look

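In 54 sets of sham values of the hyaluronan and related genes, 7 had 1 mouse far from the other 3 by Dixon's ratio (the gap to the nearest mouse over the whole range), where chance alone gives about 2.7. In 4 of them, 3 sham-operated mice were at 0 and the ratio was 1.00 by construction: Hapln1 (1 fragment in sham replicate 1), Cemip (2 fragments in sham replicate 3), Ncan (2 fragments in sham replicate 4) and Itih1 (3 fragments in sham replicate 4). The ratio was 0.968 for Msn, where sham replicate 3 was at 29.1 FPKM and the others at 30.3. It was 0.903 for Rdx, where sham replicate 1 was at 7.99 FPKM against 17.1 to 18.1 in the others. MI replicates 2 and 3, at 8.34 and 8.43, lay near that mouse, and MI replicate 1 was at 23.1. It was 0.851 for Spp1, which encodes the Cd44 ligand osteopontin, where sham replicate 4 was at 0.186 FPKM against 0.626 to 0.704. The causes were not tested.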

How the results depend on the processing

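The count of hyaluronan genes at an adjusted p under 0.05 was 0, with a range of 0 to 4 when 1 mouse was left out (4 without MI replicate 2), and 4 with sample weights. The weights did not converge, giving MI replicate 3 a weight of 436.7, so that fit rests on nearly 1 MI mouse. The count at an unadjusted p under 0.05 was 3, became 6 without the filter, and ranged from 1 (without MI replicate 3) to 4 with 1 mouse left out. Over all genes tested, 3 were called, and 6 with a pseudocount of 0.1, 21 without the filter, 0 when genes were filtered by their mean (4740 genes with an unadjusted p under 0.05), 15 under scaling by the median log-ratio, 15 under quantile normalization and 9952 with sample weights. With 1 mouse left out, the range was 0 to 8195 (8195 without MI replicate 2). The median log2 fold change over all genes tested was 0.21, and became 0.0036 under the median log-ratio, 0.42 in TPM and -0.03 under quantile normalization. Of the 10 genes, Hyal2 turned its sign, to -0.011 under the median log-ratio and -0.076 under quantile normalization, and the other 9 kept their direction in all 12 to 17 alternatives run for each. The fit with sample weights, run only for the 4 genes that passed the filter, is left out of the following ranges. Over the other alternatives, limma's adjusted p ran from 0.00263 to 0.411 for Has1, 0.0101 to 0.441 for Has2 and 0.184 to 0.699 for Has3. It ran from 0.00548 to 0.335 for Hyal1, 0.0251 to 0.944 for Hyal2, 0.000212 to 0.335 for Cd44 and 8.7e-05 to 0.335 for Tnfaip6. For Vcan it was 0.000395 to 0.431, for Hapln1 0.0341 to 0.528 and for Acan 0.00015 to 0.431. Except for Has3, each lowest value came from leaving out MI replicate 2. The 5 differences between genes kept their direction in all 11. At GENCODE M21 lengths, the mean ratio of synthase to hyaluronidase FPKM became 0.142 in the sham-operated and 0.419 in the MI mice. Same-numbered mice correlated at 0.07, -0.02 and -0.08 in their deviations from the group means, and other pairs at -0.09 to 0.08. With so few MI mice, 1 of which stood apart, these values cannot decide whether the numbers pair the mice. A replicate block (sham replicate 4 has no partner) called 0 genes (2332 at an unadjusted p under 0.05) and 0 hyaluronan genes. Genes under about 10 fragments per mouse, such as Hapln1, Acan and Has1 in sham hearts, are limited by counting.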
